A study of Mus musculus with 50 samples.

Results

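The last large step in the postnatal gene expression of mouse spinal motor neurons lay between postnatal day 13 (P13) and P21. It was read from the RNA libraries labelled P13 and P21, which are 5 of the 50 samples of the series, 5 of its 28 RNA libraries and 5 of its 18 RNA libraries from tissue. There were 2 libraries at P13 and 3 at P21. Both ages came from C57BL/6 mice that carried Chat-Cre and SUN1-GFP-3xMYC, had no treatment and gave nuclear RNA of the spinal cord. Chat-Cre, a recombinase made under the promoter of choline acetyltransferase, turns on a GFP-tagged protein of the nuclear envelope in every cholinergic cell, and nuclei were pulled out with antibody and magnetic beads, a modified form of the INTACT method. Brachial and lumbar cord of several animals went into 1 preparation, and the label covers visceral motor neurons and cholinergic interneurons as well as skeletal motor neurons. The paper cites an earlier report that Chat-Cre also marks GABAergic and glutamatergic neurons in adult cord. Its own deconvolution of P56 libraries found no significant part of non-cholinergic cells. The clusters it names as reference are excitatory, inhibitory and cholinergic, and glia and vessel cells are not named among them. The wider study followed these nuclei from embryo to 2 years and compared them with motor neurons grown from stem cells. At its youngest embryonic age it used whole cells, sorted from embryos of another GFP line, in place of nuclei. The 3 RNA libraries of that age are among the 18 from tissue. The study's methods pool tissue of several animals for each library and treat the libraries of an age as biological replicates, so the p-values measure the spread between such pools. The labels' SUN1-GFP-3xMYC is SUN1-2xsfGFP-6xMYC in those methods.

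Around the third postnatal week mice come to walk with an adult gait, muscle fibres have lost their extra motor inputs, and motor neurons take on adult firing and synaptic properties. Their nuclei hold newly made messenger RNA, small nuclear RNAs (snRNAs) that form the spliceosome, and small nucleolar RNAs (snoRNAs) that guide the modification of ribosomal and spliceosomal RNA. Many snoRNAs are cut out of introns of genes for ribosomal proteins and translation factors. Nuclei also carry some cytoplasmic RNA through a preparation, and bead purification can carry along nuclei of other cell types of the cord, such as glia and cells of the vessel wall.

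The libraries of both ages differed in more than age, and these values apply to every result that follows. Total counts were 10576272 and 5664087 at P13 and 3990868, 3978536 and 3901610 at P21. The mean fragment length that the counting program had estimated was 268 and 271 nucleotides (nt) at P13, against 227, 213 and 207 nt at P21. Gm42418, a noncoding annotation that lies over a piece of ribosomal DNA, took 0.104% and 0.0914% of the counts at P13 and 0.584%, 0.611% and 0.609% at P21. It was at 0.116% and 0.110% at E13.5 and between 1.41% and 1.48% at P4. The P13 and E13.5 libraries thus stood apart from those of P4, P21 and P56 in both values, and among the 5 libraries fragment length and age cannot be told apart. CT010467.1, on the other strand of the same place on chromosome 17, went the opposite way, and both together, a pair chosen after their values were seen, rose 5.09-fold. Markers of the labelled cell type were present at both ages, as were markers of other cell types, described below, with a larger sum for those of myelin. All 8 markers of cholinergic motor neurons were detected in every library and none was called changed by edgeR or DESeq2 (2 had an unadjusted p under 0.05), with a median log2 fold change of -0.01 and summed levels of 4352 and 4626 normalised counts at P13 and 4972, 4253 and 4117 at P21.

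**Figure D1:**
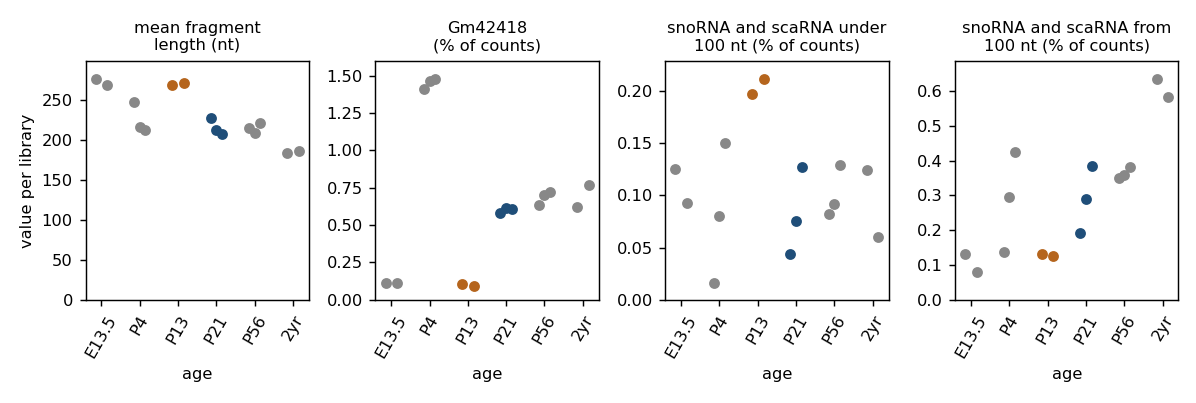
Each point is 1 library of nuclear RNA, by age on the x axis (E13.5 to 2 years, P13 in orange, P21 in blue), and the panels show the mean fragment length in nt, the percent of counts on Gm42418, and the percent on snoRNAs and scaRNAs (small RNAs of the Cajal body) under 100 nt and from 100 nt. P13 lies at 268 and 271 nt beside 207 to 227 nt at P21, and Gm42418 takes 0.0914% and 0.104% at P13 beside 0.584% to 0.611% at P21.

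Far more genes fell than rose. Of the 15030 genes tested, 871 (5.8%) were lower and 226 (1.5%) were higher at P21, 7.3% in all. The limits were 2-fold and an unadjusted p below 0.001 in edgeR's quasi-likelihood test over the 18 tissue libraries. A gene is called lower or higher below by this rule, and changes are log2 fold changes of P21 over P13. At a Benjamini-Hochberg adjusted p under 0.05 with the same fold, 1228 were lower and 431 higher, 11% of all. The median change of all genes tested was -0.07. The P13 and P21 libraries did not overlap for any called gene, as for 58.5% of all genes tested. The excess of falling genes was smaller with other scaling: median-of-ratios factors gave 720 lower and 323 higher, 69.0% lower among the calls in place of 79.4%. The number of calls rested most on P13 replicate 2, without which 617 were lower and 88 higher. With the mean fragment length of each library as a term in the fit, 248 were lower and 50 higher, of which 200 and 34 were also called without that term.

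Most falling and most rising genes were protein-coding, while small RNAs made up 20.8% of the rising and 1.61% of the falling genes. Protein-coding genes made up 782 of the 871 lower and 136 of the 226 higher genes, out of 12297 tested. Small nuclear and nucleolar RNAs were 175 of the genes tested, and 47 of them (26.9%) rose while 14 (8.0%) fell. Long noncoding RNAs gave 25 higher and 28 lower genes of 1722, and pseudogenes 12 and 28 of 420. The largest falls and rises with at least 50 normalised counts at the higher age were taken as the first genes to describe, and the rest come from lists of pathways and cell type markers.

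**Figure D2:**
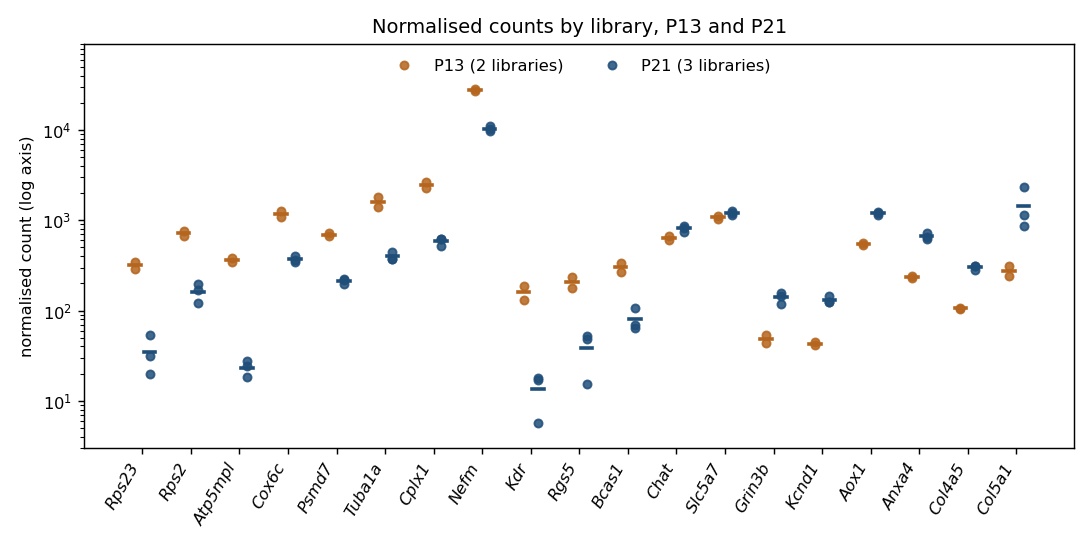
Each point is the normalised count of 1 gene in 1 library on a log axis, with P13 in orange (2 libraries), P21 in blue (3 libraries) and a bar at the mean of each age. Genes from Rps23 to Bcas1 fell and those from Grin3b to Col5a1 rose without overlap of the ages, while Chat and Slc5a7, 2 genes of acetylcholine supply, were not called.

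The genes of protein synthesis fell together. Of the 82 cytosolic ribosomal protein genes, which encode the protein part of the ribosome, 59 were called lower and none higher, 81 had a negative change, and the median was -1.64. Rps23, a protein of the small subunit near the decoding centre, lies on chromosome 13 of mm10 (90922958 to 90924950) and showed the steepest fall among them. Rps23 had 287 and 346 normalised counts at P13 and 19.7, 31.1 and 54.2 at P21. All P21 libraries lay far under both P13 libraries, with a log2 fold change of -3.24 (SE 0.27, edgeR quasi-likelihood test, Benjamini-Hochberg adjusted p = 9.6e-07). Rps29 had 116 and 151 normalised counts at P13 and 8.46, 26.9 and 12.5 at P21, a log2 fold change of -3.13 (SE 0.27, edgeR quasi-likelihood test, Benjamini-Hochberg adjusted p = 1.2e-06). Rpl29 had 380.5 and 417 normalised counts at P13 and 63.4, 66.4 and 88.9 at P21, a log2 fold change of -2.53 (SE 0.20, edgeR quasi-likelihood test, Benjamini-Hochberg adjusted p = 8.7e-07). Each of these genes was again under its lowest P13 library in every P21 library. The calls for the list numbered between 53 and 62 when 1 library was left out and 43 with fragment length as a term, where the median was -1.74.

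Part of this group overlaps with small RNAs, since 30 of the 82 ribosomal protein genes contain an annotated snoRNA. The counting program was run with its default setting, which does not use strand, so reads of a gene and of an RNA inside or opposite it cannot always be told apart. Rps2, of the small subunit, is such a host. Rps2 had 764 and 677 normalised counts at P13 and 119.8, 196 and 169 at P21, a log2 fold change of -2.24 (SE 0.17, edgeR quasi-likelihood test, Benjamini-Hochberg adjusted p = 4.5e-07). Among the 52 genes with no annotated small nucleolar RNA inside, 35 were called lower. Their summed level was 8253 and 9295 normalised counts at P13 and 2658, 3431 and 3413 at P21, a ratio of 0.361, and the ages did not overlap. The share of counts on all ribosomal protein genes was 0.994% and 0.972% at P13 and 0.184%, 0.245% and 0.308% at P21.

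Among 42 translation factor genes 15 were called lower and none higher, with a median of -0.75. Eif4a1 encodes the helicase that opens the 5′ end of messenger RNA for the ribosome. Eif4a1 had 6485 and 5607 normalised counts at P13 and 789, 1156 and 1526 at P21, a log2 fold change of -2.47 (SE 0.24, edgeR quasi-likelihood test, Benjamini-Hochberg adjusted p = 3.8e-06). This gene also hosts snoRNAs, and 11 of the 33 translation factor genes without one were lower. Eif6, which keeps the large subunit free until it is mature, hosts none. Eif6 had 61.0 and 71.4 normalised counts at P13 and 21.1, 22.6 and 20.8 at P21. Eif3g, a subunit of an initiation factor, and Tpt1, a snoRNA host that encodes a growth-associated protein, were also lower, with log2 fold changes of -1.23 and -1.75.

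Genes of protein quality control had smaller median changes of the same sign. In the proteasome, which degrades tagged proteins, 7 of 34 genes were called lower, with a median of -0.63 and 32 negative. Psmd7 had 662 and 727 normalised counts at P13 and 197, 226 and 217 at P21, a log2 fold change of -1.78 (SE 0.18, edgeR quasi-likelihood test, Benjamini-Hochberg adjusted p = 4.5e-06), for this subunit of the regulatory lid. Psmc3, Psmc1 and Psma6, 2 ATPases of the base and a subunit of the core, fell by 1.26, 1.33 and 1.63 on the log2 scale. The CCT chaperonin, which folds actin and tubulin, had a negative change in all 8 genes and a call in 2, Tcp1 at -1.38 and Cct5 at -1.24. Among 19 cytosolic heat shock chaperones 5 were lower, with a median of -0.66. Hspa8 had 4750.2 and 5241 normalised counts at P13 and 1462, 2410.0 and 2343 at P21. Hsp90ab1 had 3255 and 3817 normalised counts at P13 and 1271, 1637 and 1540.4 at P21, and the ages did not overlap for either of these chaperone genes. Both stayed above 1000 normalised counts in every P21 library. With fragment length as a term 4 proteasome, 1 chaperonin and no heat shock genes were called, with medians of -0.71, -0.59 and -0.64.

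Energy metabolism gave the second large block of falling genes. Of 76 nuclear-encoded respiratory chain genes tested, 51 were called lower and none higher, 75 had a negative change and the median was -1.35. Atp5mpl, a small subunit of the ATP synthase, is not in this list. It showed the steepest fall among genes with at least 50 normalised counts at P13 and a name other than a Gm or Rik number. It lies on chromosome 12 of mm10 (111961375 to 111966977). Atp5mpl had 346 and 383 normalised counts at P13 and 18.3, 24.0 and 27.8 at P21, a log2 fold change of -4.03 (SE 0.25, edgeR quasi-likelihood test, Benjamini-Hochberg adjusted p = 9.4e-08). It had been at 35.0, 27.4 and 37.6 at P4, under both P13 libraries, but at a mean of 1179 at E13.5, above them. Cox6c had 1075 and 1261 normalised counts at P13 and 344, 403 and 361 at P21, a log2 fold change of -1.74 (SE 0.16, edgeR quasi-likelihood test, Benjamini-Hochberg adjusted p = 1.9e-06), for this subunit of cytochrome oxidase. Atp5h had 589 and 770.3 normalised counts at P13 and 169, 215 and 192 at P21. Ndufa4 had 151 and 185 normalised counts at P13 and 39.5, 48.1 and 47.2 at P21, and in each gene every P21 library was under both P13 libraries. Only 2 of the 76 genes contain a small nucleolar RNA, and 50 of the other 74 were called. Leaving out 1 library gave 42 to 52 calls, and the term for fragment length gave 25 with a median of -1.50.

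The 13 messenger RNAs of the mitochondrial genome, which are made outside the nucleus, varied among the P21 libraries. None was called by edgeR (3 had an unadjusted p under 0.05, and DESeq2 called 1, mt-Co2) and the median was -0.38. That median ranged from -0.11, without P21 replicate 1, to -0.81, without P21 replicate 3, and was -1.05 with fragment length as a term. mt-Co1 had 759 and 686 normalised counts at P13 and 376, 678 and 744 at P21, and the P21 range reached into that of P13. Their share of all counts was 0.209% and 0.190% at P13 and 0.0824%, 0.185% and 0.270% at P21, so the ages overlapped. Glycolysis had 6 of 17 genes lower, with a median of -0.85. Pgk1 had 349 and 372 normalised counts at P13 and 123, 178 and 139 at P21, a log2 fold change of -1.38 (SE 0.17, edgeR quasi-likelihood test, Benjamini-Hochberg adjusted p = 3.1e-05), for phosphoglycerate kinase. Gapdh and Aldoa, at -1.01 and -1.06, lost their calls with median-of-ratios scaling, and without P13 replicate 2 only 2 of the 17 genes were called. In cholesterol synthesis 1 of 22 genes was lower (4.55%, beside 5.8% of all genes), the farnesyl diphosphate synthase Fdps at -1.34, which lost the call without P13 replicate 1.

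**Figure D3:**
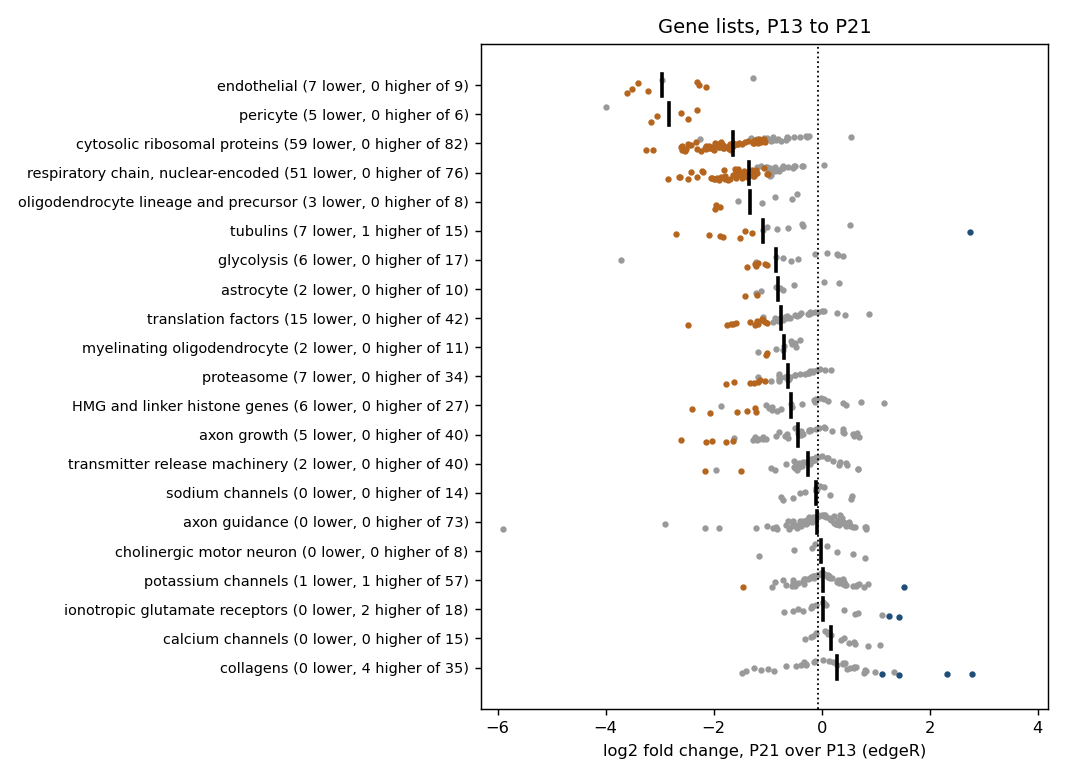
Each point is 1 gene of the list named on the y axis at its log2 fold change of P21 over P13 (x axis), orange where called lower, blue where called higher and grey otherwise, with the list's median as a black bar and the median of all genes tested, -0.07, as a dotted line. Cytosolic ribosomal proteins (59 of 82 lower) and the respiratory chain (51 of 76 lower) are shifted as whole lists, while calcium and potassium channels and axon guidance genes spread around 0.

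Of the lists for the axon and its skeleton, the tubulins had the highest share of genes called lower. Among 15 tubulin genes, which build microtubules, 7 were called lower and 1 higher, with a median of -1.09. Tuba1a had 1409 and 1809 normalised counts at P13 and 376, 369 and 450.0 at P21, a log2 fold change of -2.09 (SE 0.29, edgeR quasi-likelihood test, Benjamini-Hochberg adjusted p = 9.8e-05), for the alpha-tubulin of growing neurons. Tubb5 had 506 and 752 normalised counts at P13 and 180.4, 211 and 168 at P21. Tuba4a had 394 and 442 normalised counts at P13 and 109, 107 and 142 at P21, for an alpha-tubulin of mature neurons, after 89.2, 61.4 and 77.6 at P4. Tuba1c was the exception, with 4.69 and 1.88 normalised counts at P13 and 14.1, 17.0 and 48.6 at P21, but near-identical tubulin copies can exchange reads in the counting, and the call was lost without P13 replicate 1, P13 replicate 2 or P21 replicate 3, at 3.69, 2.38 and 1.98.

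Of 40 axon growth genes 5 were called lower, with a median of -0.43, and the actin-binding peptides led. Tmsb4x had 484 and 585 normalised counts at P13 and 101, 147 and 135 at P21, a log2 fold change of -2.14 (SE 0.24, edgeR quasi-likelihood test, Benjamini-Hochberg adjusted p = 1.1e-05). Tmsb10 had 326 and 413 normalised counts at P13 and 77.5, 103 and 104 at P21. Marcksl1 and Fscn1, which organise actin at the growth cone, were called lower, with log2 fold changes of -1.77 and -1.64. Of 10 neurofilament and microtubule-associated protein genes 2 were lower, the neurofilament genes Nefm and Nefh, which set axon calibre. Nefm had 27249 and 28513 normalised counts at P13 and 10209, 11103 and 9888 at P21, a log2 fold change of -1.50 (SE 0.38, edgeR quasi-likelihood test, Benjamini-Hochberg adjusted p = 0.0092). Nefh had 9735 and 11699 at P13 and 4334, 4698 and 4177 at P21. Both neurofilament calls were lost whenever any 1 library was left out, with log2 fold changes that stayed between -1.55 and -1.25, and that of Nefm also with median-of-ratios scaling. Motor proteins gave 4 lower and 1 higher of 52 kinesin and dynein genes, 7.69% lower beside 5.8% of all genes. Dynll1, a light chain of dynein, was at 383 and 449 normalised counts at P13 and 107, 110.2 and 118 at P21, and Klc4, a kinesin light chain, was the 1 that rose, at 1.23, a call lost without P13 replicate 2.

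At the synapse Cplx1 stood out. It encodes complexin, which clamps vesicle fusion until calcium enters. Cplx1 had 2291 and 2691 normalised counts at P13 and 526, 626 and 622 at P21, a log2 fold change of -2.15 (SE 0.33, edgeR quasi-likelihood test, Benjamini-Hochberg adjusted p = 0.00023). In the release machinery as a whole 2 of 40 genes were lower, Cplx1 and Stx1a, which is 5% beside 5.8% of all genes, with a median of -0.25. The Stx1a call at -1.49 was lost without P13 replicate 1, P13 replicate 2, P21 replicate 2 or P21 replicate 3. The chromatin genes Hmgb3, H3f3b, Chd3 and H3f3a were among 6 of 27 HMG and histone genes called lower, with a list median of -0.56. Hmgb3 had 242 and 163 normalised counts at P13 and 60.6, 39.6 and 54.2 at P21. H3f3b had 293 and 329 normalised counts at P13 and 114, 106 and 109.7 at P21, and the ages did not overlap for either gene.

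Markers of the vessel wall had the lowest medians of all lists. Of 9 endothelial markers 7 were called lower, with a median of -2.96, and of 6 pericyte markers 5, with a median of -2.83. Kdr had 130.3 and 187 normalised counts at P13 and 5.64, 17.0 and 18.1 at P21, a log2 fold change of -3.60 (SE 0.39, edgeR quasi-likelihood test, Benjamini-Hochberg adjusted p = 8.9e-06), for the receptor of vascular endothelial growth factor. Rgs5 had 179.8 and 233 normalised counts at P13 and 15.5, 52.3 and 48.6 at P21, a log2 fold change of -2.48 (SE 0.31, edgeR quasi-likelihood test, Benjamini-Hochberg adjusted p = 3.1e-05), for this pericyte gene. The summed endothelial markers were at 409 and 610 normalised counts at P13 and 50.7, 107 and 77.8 at P21, and the pericyte markers at 342 and 443 against 36.6, 86.2 and 70.8. At P4 these sums had been 6078 to 8349 and 3538 to 5263, and at P56 they were 20.7 to 34.9 and 33.1 to 51.5. Kdr, Cdh5, Cd93, Lama4, Lamb1, Abcc9 and Adgrl4, all genes of the vessel wall or its basement membrane, were 7 of the 15 largest falls. The study's methods describe some blood vessel contamination in the preparations of the younger ages and purer nuclei from P13 on. The nuclei were measured in bulk, so fewer nuclei of a type and less RNA per nucleus cannot be told apart. Without both marker lists 859 genes were lower and 226 higher. The 5 called pericyte markers dropped to 1 and the 7 endothelial ones to 2 with fragment length as a term, with medians of -2.25 and -2.78.

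Glial markers had medians nearer to 0. Bcas1 had 268 and 333 normalised counts at P13 and 64.8, 107 and 69.5 at P21, a log2 fold change of -1.97 (SE 0.24, edgeR quasi-likelihood test, Benjamini-Hochberg adjusted p = 2.2e-05), for a gene of newly formed oligodendrocytes. Sox10 and Gpr17, of the same lineage, were at -1.89 and -1.96, so that 3 of the 8 lineage markers were lower with a median of -1.33. Gpr17 lost its call without P13 replicate 2 or P21 replicate 1. The lineage sum was 710 and 884 at P13 and 237, 336 and 299 at P21. Myelin markers were all negative with a median of -0.70, and 2 of 11 were called, Cnp and Mbp, both lost with median-of-ratios scaling. Their sum was 13295 and 13130 at P13, 7243, 9831 and 8894 at P21, 2335 to 2982 at P4 and 2610 to 3929 at P56. Astrocyte markers had 2 of 10 called lower, Gfap and Aqp4, with a median of -0.81, and none without P13 replicate 2 or without P21 replicate 1. Their sum was 2949 and 3684 at P13 and 1849, 2373 and 2206 at P21. The part of these other cells in the falling lists was not tested.

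Other cell types gave no call in edgeR. Fibroblast markers had a median of -1.33 over 6 genes, of which 3 had an unadjusted p under 0.05 and DESeq2 called 1, Col3a1, but P21 replicate 3 held a sum of 374 beside 81.7 and 105 in the other P21 libraries and 357 and 512 at P13. Erythroid markers were near 0 in the median at 0.07, Schwann cell markers at 0.03 over 3 tested genes (3.82 without P13 replicate 2 and -0.31 without P13 replicate 1) and markers of GABAergic and glycinergic neurons at -0.42 over 5, and none of these 13 genes had an unadjusted p under 0.05 or a DESeq2 call. The summed microglial markers, most of them too low to be tested, were at 125 and 113 at P13 and 59.2, 60.8 and 77.8 at P21, without overlap. Of 3 glutamatergic markers 1 was high enough to be tested, Slc17a6, at -0.78, with an unadjusted p under 0.05 and no DESeq2 call.

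**Figure D4:**
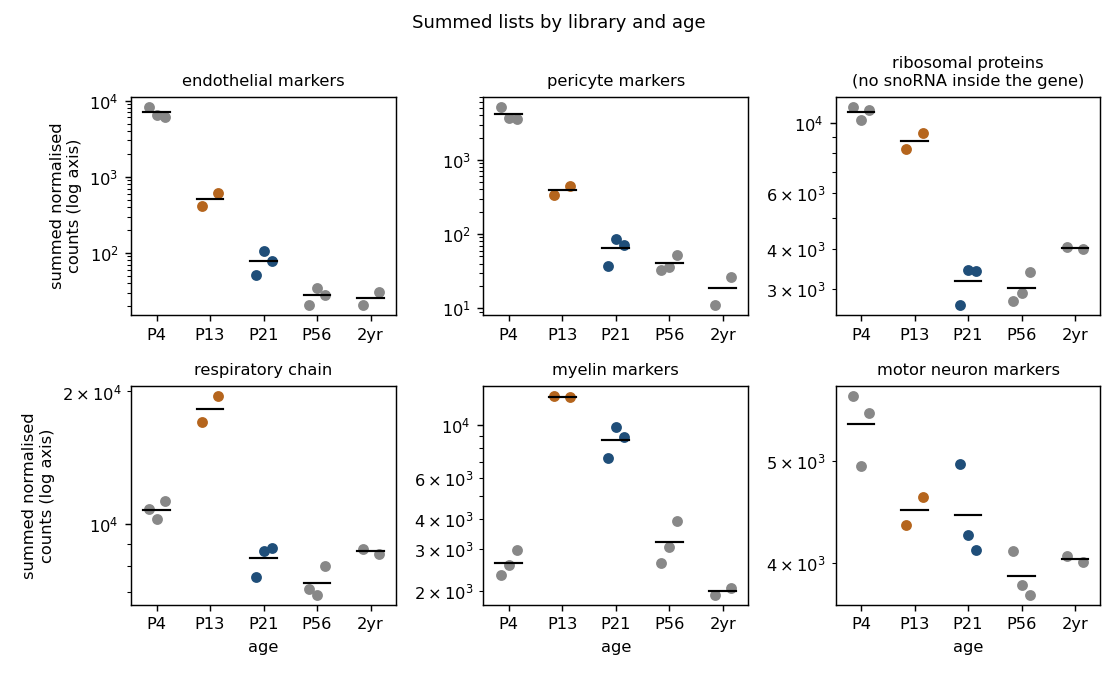
Each point is the summed normalised count of a list in 1 library on a log axis, by age from P4 to 2 years, with P13 in orange, P21 in blue and a bar at the mean of each age. Endothelial and pericyte markers go down from P4 through P13 to P21, respiratory chain and myelin markers stand highest at P13, and motor neuron markers overlap between P13 and P21 (4117 to 4972).

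Small noncoding RNAs were the class in which rises outnumbered falls, and their direction went with their length. The following sequences are those of the transcripts in GENCODE vM21 on mm10, read 5′ to 3′ as DNA, chosen to show 2 rising RNAs of the minor spliceosome and 3 falling box C/D snoRNAs. Capitals mark the stretch of Rnu12 (U12) that pairs with the branch site of minor introns, the 5′ end of Rnu11 (U11) that pairs with their 5′ splice site, and in the snoRNAs box D (CTGA) and, where found near the 5′ end, box C (TGATGA).
Rnu12: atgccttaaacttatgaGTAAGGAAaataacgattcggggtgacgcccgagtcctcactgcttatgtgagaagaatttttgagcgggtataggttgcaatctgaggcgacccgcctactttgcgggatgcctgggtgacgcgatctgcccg
Rnu11: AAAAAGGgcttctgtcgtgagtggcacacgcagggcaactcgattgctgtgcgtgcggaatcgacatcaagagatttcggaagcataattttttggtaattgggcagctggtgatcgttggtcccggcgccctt
Snord1b: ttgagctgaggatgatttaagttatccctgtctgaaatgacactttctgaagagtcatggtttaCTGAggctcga
Snord1c: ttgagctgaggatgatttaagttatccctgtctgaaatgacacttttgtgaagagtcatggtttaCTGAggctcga
Snord69: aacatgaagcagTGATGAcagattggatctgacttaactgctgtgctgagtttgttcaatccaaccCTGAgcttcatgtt
Rnu12 lies at chr15:83149644-83149794 on the plus strand (151 nt) and Rnu11 at chr4:132270080-132270213 on the minus strand (134 nt). Snord1b lies at chr11:116674148-116674222 (75 nt) and Snord1c at chr11:116672506-116672581 (76 nt), both on the plus strand, and Snord69 at chr14:31014287-31014366 on the minus strand (80 nt). The sequences of Snord1b and Snord1c are near copies, so their reads may be shared between them.

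Rnu12 and Rnu11, RNAs of the minor spliceosome, which removes a rare class of introns, were among the 15 largest rises. Rnu12 had 2.08 and 3.76 normalised counts at P13 and 139.5, 213 and 264 at P21, a log2 fold change of 6.11 (SE 0.87, edgeR quasi-likelihood test, Benjamini-Hochberg adjusted p = 0.00012). Rnu11 had 18.2 and 16.9 normalised counts at P13 and 333, 571 and 653 at P21, a log2 fold change of 4.78 (SE 0.61, edgeR quasi-likelihood test, Benjamini-Hochberg adjusted p = 4e-05). Both were low in each P13 library and far higher in every P21 library. At P4 Rnu12 had 47.4, 169.9 and 275. Rnu2-10, a copy of the branch-site snRNA U2 of the major spliceosome, had 107 and 79.8 at P13 and 1738, 3103 and 5656 at P21, and its counts were identical to those of other U2 copies. The 47 rising small RNAs held 41 distinct sets of counts. With fragment length as a term Rnu12 was at 3.13 and Rnu11 at 1.22, neither of them called.

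U3, the snoRNA of early ribosomal RNA processing, was listed under 8 identifiers for the genes Rnu3b1 to Rnu3b4, in pairs of 215 and 216 nt with the same start. The shorter ones had no count at P13, so the identifiers were summed. The sum was 723 and 334 normalised counts at P13 and 1759, 2149 and 2789 at P21, 4.22-fold higher, and at P4 it ranged from 632 to 3156. The ages did not overlap, but the lowest P4 library was within the P13 range. Snora81, Snora44 and Snora23, which guide pseudouridine formation, rose as well. Snora81 had 13.6 and 8.45 normalised counts at P13 and 194, 271 and 372 at P21, a log2 fold change of 4.51 (SE 0.52, edgeR quasi-likelihood test, Benjamini-Hochberg adjusted p = 4.1e-05). Snord89 and Snord17 were higher by 2.54 and 2.37, but Snord89 turned to -1.06 with fragment length as a term, and both calls were lost without either P13 library.

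The shortest small RNAs went the other way, and so did Gm26244, a 164-nt snRNA annotation named after its values were seen. It had 11506 and 10530 normalised counts at P13 and no count in any P21 library, which allows up to 4.24 (3 counts). It had no count at P4 or P56 either, 889.5 and 441 at 2 years, and a mean of 3054 at E13.5. Snord1b had 299 and 261 normalised counts at P13 and 15.5, 26.9 and 38.9 at P21, a log2 fold change of -3.45 (SE 0.51, edgeR quasi-likelihood test, Benjamini-Hochberg adjusted p = 0.00022). Snord1c had 109 and 107 normalised counts at P13 and 7.05, 15.5 and 4.17 at P21. Snord69 had 65.2 and 47.0 normalised counts at P13 and 1.41, 2.83 and 8.33 at P21, and for each the highest P21 library was under the lowest P13 library. Of 57 small RNAs under 100 nt, 10 fell and 1 rose, with a median of -1.40. Of 35 from 120 to 140 nt 14 rose and none fell, with a median of 2.38, and of 74 from 140 nt 27 rose and 3 fell, with a median of 1.48. The 9 between these lengths had 5 rises and 1 fall. Rising small RNAs had a median length of 178 nt and falling ones of 92.5 nt. All small RNAs together took 1.19% and 0.944% of counts at P13 and 0.995%, 1.50% and 1.87% at P21, so the total overlapped, while snoRNAs and scaRNAs under 100 nt took 0.197% and 0.211% at P13 and 0.0442%, 0.0760% and 0.127% at P21. These lengths moved with the fragment lengths given above, whose part in the result was not tested beyond the fit with that term. Snhg1 and Gas5, long RNAs that host many short snoRNAs, fell too. Gas5 had 6932 and 7437 normalised counts at P13 and 1106, 1635 and 2390.5 at P21, a log2 fold change of -2.15 (SE 0.41, edgeR quasi-likelihood test, Benjamini-Hochberg adjusted p = 0.0013).

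Among protein-coding genes the rises were fewer and smaller. Grin3b had 53.7 and 43.2 normalised counts at P13 and 145, 155 and 118 at P21, a log2 fold change of 1.43 (SE 0.24, edgeR quasi-likelihood test, Benjamini-Hochberg adjusted p = 0.00037), for a glycine-binding NMDA receptor subunit on chromosome 10 of mm10 (79970715 to 79977190). It had been at 2.26, 4.38 and 5.01 at P4, and was called higher from P4 to P13 as well. Grin2d, another NMDA receptor subunit, had 179 and 153 at P13 and 512, 406 and 340.3 at P21, but lost its call without P13 replicate 1, P13 replicate 2 or P21 replicate 1, at 1.40, 1.13 and 1.08. These were 2 of 18 ionotropic glutamate receptor genes called, both higher, and the median of the list was 0.02. Kcnd1 had 44.3 and 41.3 normalised counts at P13 and 144, 124 and 124 at P21, a log2 fold change of 1.52 (SE 0.24, edgeR quasi-likelihood test, Benjamini-Hochberg adjusted p = 0.00024), for an A-type potassium channel. It was the 1 riser among 57 potassium channel genes, with Kcns2 the 1 that fell, at -1.45, a call lost without P13 replicate 1, P13 replicate 2, P21 replicate 2 or P21 replicate 3. Each direction held 1.75% of that list, beside 1.5% higher and 5.8% lower among all genes. None of these 4 receptor and channel genes was called with fragment length as a term.

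Collagens gave 4 higher and 0 lower genes of 35, with a median of 0.29. Col4a5 had 106 and 105 normalised counts at P13 and 313, 314 and 281 at P21, a log2 fold change of 1.44 (SE 0.18, edgeR quasi-likelihood test, Benjamini-Hochberg adjusted p = 2.6e-05), for a chain of the basement membrane. Col5a1 had 309.6 and 242 normalised counts at P13 and 2354, 1144 and 868 at P21, a log2 fold change of 2.31 (SE 0.36, edgeR quasi-likelihood test, Benjamini-Hochberg adjusted p = 0.00025). Every P21 library was above both P13 libraries for these 2 genes, though the P21 libraries of Col5a1 differed widely. Col24a1 had 341 and 395 normalised counts at P13 and 1023, 703 and 809.8 at P21, with a call lost without P13 replicate 1 or P21 replicate 1, at 1.04 and 0.96. Col4a6 was near the floor at P13, at 4.17 and 0.939, and had 28.2, 19.8 and 18.1 at P21. The calls of Col4a5, Col5a1 and Col24a1 also passed with fragment length as a term. The 3 collagens among the fibroblast markers were not called, at -1.26, -1.40 and -1.47.

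Aox1 had 536 and 556 normalised counts at P13 and 1249, 1218 and 1132 at P21, a log2 fold change of 1.06 (SE 0.17, edgeR quasi-likelihood test, Benjamini-Hochberg adjusted p = 0.00029), for an aldehyde oxidase. Zbtb16, a transcription factor, was the riser among 23 motor neuron factors, at 1.10, and Nkx6-1 the 1 that fell, at -2.20, and the Zbtb16 call was lost without P13 replicate 1, P13 replicate 2 or P21 replicate 1. Each direction held 4.35% of those factors, beside 1.5% higher and 5.8% lower among all genes. Further risers from 200 normalised counts at P21 were chosen after their values were seen. Anxa4 had 232 and 244 normalised counts at P13 and 619, 718 and 658 at P21, a log2 fold change of 1.40 (SE 0.15, edgeR quasi-likelihood test, Benjamini-Hochberg adjusted p = 1e-05), for a calcium-dependent membrane-binding protein. Inpp5j had 175 and 157 normalised counts at P13 and 523, 403 and 364 at P21, a log2 fold change of 1.29 (SE 0.21, edgeR quasi-likelihood test, Benjamini-Hochberg adjusted p = 0.00036), for a phosphatase of inositol phosphates. Celsr3, an atypical cadherin of axon tracts, Abca7, a lipid transporter, and Setd1a, a histone H3 lysine 4 methyltransferase, were higher by 1.36, 1.50 and 1.54, and all of them lost their calls without P13 replicate 2. Sept2 was called in both directions under 2 identifiers, whose sum was 668 and 690.5 at P13 and 339.7, 349 and 353 at P21, a ratio of 0.511.

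Most lists of neuronal identity and excitability held few calls or none. Sodium channels (14 genes), calcium channels (15), axon guidance (73), cadherins and synaptic adhesion (52), perineuronal net (12) and the NFI and Mef2 factors (7) had none in edgeR, with medians from -0.10 to 0.18. At an unadjusted p under 0.05 there were 3, 5, 13, 9, 4 and 1 genes in these lists, and DESeq2 called Cacna1h, Epha2 and Cadm4. The 1 call among 33 nuclear receptors was Nr4a1, higher at 1.42, and it was also the riser among 24 activity-regulated genes, where Ier5 fell by 2.60 on the log2 scale. Nr4a1 lost its call without P13 replicate 2 or P21 replicate 2. Among 12 cholinergic genes Bche, a cholinesterase, was lower at -2.46, a call lost with median-of-ratios scaling and without P13 replicate 1, P13 replicate 2, P21 replicate 2 or P21 replicate 3. Hox genes had 3 of 34 lower (Hoxb7, Hoxc10 and Hoxa7, at -1.87, -1.13 and -1.08) and 1 higher (Hoxb3, at 1.39). Of these Hoxb7 lost its call without P13 replicate 1, Hoxa7 without P13 replicate 1 or P21 replicate 3, and Hoxb3 without P13 replicate 2 or P21 replicate 1. Stat2 and Irf9, of the interferon response, were the 2 of 10 MHC and interferon genes called, both higher, at 1.23 and 1.27, with neither called without P13 replicate 2, and Irf9 called only when no library or P21 replicate 1 was left out. Trophic factor receptors had 2 of 26 lower, the endothelial Kdr and Flt1. Splicing and RNA-binding proteins had 4 of 64 lower (6.25%), led by Hnrnpk at -1.35. Cell cycle genes had 2 of 26 lower (7.69%), Ccnb1 at -3.84 and Pcna at -1.61, and imprinted growth genes 2 of 20 (10%), Nnat at -2.60 and Ndn at -1.63. Among all genes tested 5.8% were lower, beside 8.82% of the Hox genes and 7.69% of the trophic factor receptors. Shares this near to that of all genes do not set these lists apart. Ndn lost its call without P13 replicate 2, and Pcna without P13 replicate 2 or any 1 of the P21 libraries. Among 27 markers of alpha, fast, slow and gamma motor neurons, Aox1 was higher and Ahnak2 lower, at -1.14, a call lost with median-of-ratios scaling and with any 1 library left out.

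Genes that the study follows as markers of maturation were mostly not called over this step. The in situ images by which the paper shows their postnatal rise are of P4 and P56. That span is longer than P13 to P21, so the values below do not test the paper's statement. Scn4b had 334 and 292 normalised counts at P13 and 334, 406 and 372 at P21, at a log2 fold change of 0.16. Kcng4 had 117 and 192 normalised counts at P13 and 171, 194 and 176 at P21, also at 0.16. Both directions turned with fragment length as a term, to -0.15 and -0.27, and that of Kcng4 without P13 replicate 1. Gls2, Rab37, Tmod1 and Col5a3 were higher by 0.86, 0.97, 0.83 and 1.34 without passing the limits, and Kcnj14, Thrsp, Dmp1 and Spp1 were at 0.35, 0.19, -0.15 and -0.44. Thrb, the thyroid hormone receptor, was at 0.13, and at -0.33 with fragment length as a term. Grin3b and Aox1, above, were the 2 of these 13 genes that were called.

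Genes called lower were short. The median transcript length was 1395 nt for the 782 lower, 2508 nt for the 136 higher and 2476 nt for all 12297 protein-coding genes tested, and the median span on the genome was 9329.5 bp, 18470 bp and 26921 bp. The share called lower was 29.1% under 500 nt (55 genes), 28.3% from 500 to 1000 nt, 12.1% to 1500 nt, 6.61% to 2000 nt, 3.48% to 3000 nt, 2.22% to 5000 nt and 2.71% above. The median change went from -2.03 in the shortest class to 0.01 in the longest. Without the ribosomal and respiratory lists the shares of the 3 shortest classes were 14.3%, 20.8% and 11.2%. Lower genes were also more abundant at P13, at a median level of 17.2 TPM, a scale that corrects for transcript length, against 6.52 TPM for all. The call itself favours genes that are high at P13, so it partly fixes this comparison. Of the 9646 protein-coding genes of at least 1500 nt with no small nucleolar RNA inside, 340 were lower and 113 higher. Under 1500 nt 430 genes were lower, and 130 with fragment length as a term.

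**Figure D5:**
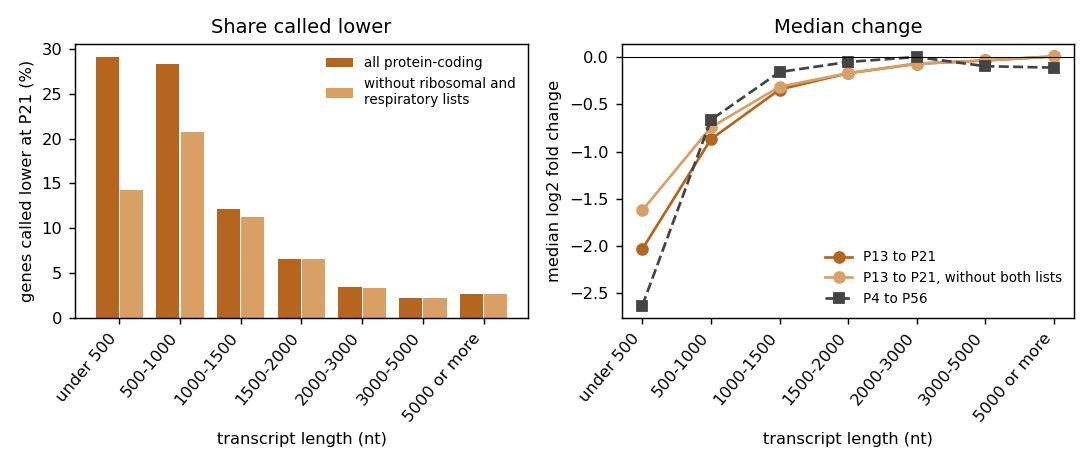
Protein-coding genes are grouped by transcript length in nt on the x axis; the left panel shows the percent called lower at P21 as bars, for all genes and without the ribosomal and respiratory lists, and the right panel the median log2 fold change. The share falls from 29.1% under 500 nt to 2.22% at 3000 to 5000 nt, and the P4 to P56 medians (dashed), from libraries of other ages, run from -2.63 to values near 0.

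The libraries of P4 and P56, which chose none of these genes, were read for the longer course. Of the 871 genes lower at P21, 382 (43.9%) were also called lower from P4 to P56, where 11.7% of all genes were, and the 382 were 21.6% of those 1765. Of the 226 higher genes 90 (39.8%) were called higher from P4 to P56, against 6.01% of all, and were 9.96% of those 904. Median changes of the falling genes were 0.63 between P4 and P13, -1.54 in the step itself, -0.07 between P21 and P56 and -0.98 over the whole span of P4 to P56. For the rising genes they were -0.63, 1.44, 0.11 and 0.98. The first 3 steps share the P13 or P21 libraries with the choice of the genes. Both P13 libraries were above all P4 and P21 libraries for 517 of the 871 falling genes, where 13.6% of all genes were, a count that the call itself partly fixes. After P21 few genes were called, 7 higher (0.0466%) and 19 lower (0.126%) at P56.

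The lists differed in this course. Ribosomal proteins were at -0.13 in the median from P4 to P13 and -1.75 from P4 to P56, with 66 of 82 called lower over the latter. Their sum without snoRNA hosts was 10156 to 11224 at P4, above P13, and 2745 to 3394 at P56. With the hosts included the order of P4 and P13 was the reverse. The sum of all 82 was 23769 to 30427 at P4, 54771 and 51717 at P13, and 13822 to 14964 at P56. Respiratory chain genes were at 0.90 from P4 to P13 and -0.74 from P4 to P56, with 15 of 76 called lower, and their sum went from 10268 to 11257 at P4, through 17061 and 19520 at P13, to 7568, 8655 and 8799 at P21. Proteasome genes were at 0.43 and -0.17 in these comparisons and glycolysis genes at 0.65 and -0.43. Of the 47 rising small RNAs, 40 had both P13 libraries under all P4 and P21 libraries, a count that the call itself partly fixes. The same held for 60.2% of all rising genes and 11.4% of all genes tested. Of these small RNAs 5 (10.6%) were called higher from P4 to P56, beside 6.01% of all genes. Eif4a1 likewise stood at 667, 831 and 1104 at P4 and between 1441 and 1646 at P56, with P13 above both.

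Open chromatin at the same ages was measured in 4 libraries of sorted nuclei, 2 for each age, as lists of ATAC-seq peaks that the authors called in each library. By the study's methods these nuclei came from brachial, thoracic and lumbar cord, while the RNA came from brachial and lumbar cord only. Falling genes had a peak at the start site about as often at P21 as at P13. Such a peak lay within 500 bp of the start in 88.4% and 89.9% of the 782 falling protein-coding genes at P13 and in 87.7% and 88.9% at P21, beside 89.7%, 90.5%, 89.1% and 90.2% of all 12284 genes placed. Rising genes had 82.4% and 83.8% at P13 and 81.6% and 83.8% at P21. Of the ribosomal protein genes 78 of 82 had a start-site peak in each of the 4 libraries, and of the respiratory chain genes 74 of 76. Nnat, an imprinted gene that fell from 52.1 and 86.4 to 9.87, 11.3 and 13.9 normalised counts, had a start-site peak in both P13 libraries and in neither at P21. It was the only gene with this pattern among the falling genes looked at singly. Kdr, Cldn5, Nts and Rps23 had the peak in all 4 libraries, and Cdh5 and Igf2bp3 in none. Lamb1 had it in P13 replicate 2 only, and Rgs5 in replicate 2 of both ages. Endothelial markers had a start-site peak in 3 and 5 of 9 genes at P13 and in 2 and 3 at P21.

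Of 244583 merged peaks 95576 were in all 4 libraries, 4491 in both P13 libraries only and 11440 in both P21 libraries only. With the 100000 strongest peaks of each library these last counts were 4421 and 4211, of 118992 merged peaks. A peak found only at P13 lay in or within 10000 bp of 9.85% of the falling genes and 17.8% of all, and one found only at P21 near 20.7% and 32.0%. Since falling genes span less genome, the same peaks were counted per megabase, which gave 2.47 and 5.46 for falling genes and 2.86 and 7.09 for all. The files give no read depth for these libraries, and each was called on its own, with 159286 and 214940 peaks at P13 and 197217 and 235590 at P21.

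Promoter sequences of RefSeq on GRCm38.p6, from 250 bases before to 50 after the start, were found for 9790 of the 12297 genes, 628 of the 782 falling genes and 62 of the 82 ribosomal protein genes. The promoter of Rps23 is printed as the example of that list, at chr13:90922872-90923171 on the plus strand. Capitals mark a run of pyrimidines that begins just after the annotated start. The RefSeq start lies inside the span that GENCODE gives the gene. As background, a run of pyrimidines at the very 5′ end, the TOP motif, ties the translation of ribosomal protein messenger RNAs to growth signals.
Rps23: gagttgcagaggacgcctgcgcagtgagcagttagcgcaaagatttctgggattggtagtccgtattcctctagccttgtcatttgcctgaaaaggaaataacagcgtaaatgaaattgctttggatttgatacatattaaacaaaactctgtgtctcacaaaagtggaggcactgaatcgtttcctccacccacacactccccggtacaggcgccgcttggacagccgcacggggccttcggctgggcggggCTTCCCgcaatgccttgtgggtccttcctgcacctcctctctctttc
A run of at least 5 C or T bases at the start was found in 40.3% of ribosomal protein promoters, 13.3% of all promoters and 13.2% of those of falling genes. The printed Rps23 promoter was not counted, since only part of its run lay in the short stretch searched around the start. The letters CCGGAAG, a core of ETS factor sites, searched on both strands, were in 25.2% of promoters of falling genes, 40.3% of ribosomal and 25% of respiratory chain promoters and 19.8% of all. GCATGCGC, a core of NRF1 sites, was in 17.2% of respiratory chain promoters and 6.08% of all, and AAGATGGCG, a core of YY1 sites, in 10.9% and 3.56%. GGGCGG, the GC box, was in 40.6% of respiratory chain promoters and 70.2% of all. These are matches of letters in a window and no measure of binding.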

How the data were processed

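RNA-seq libraries were made by the authors from bead-purified nuclei with a stranded total RNA kit for low input and ribosomal depletion. The authors trimmed reads with Trim Galore (cutadapt 0.6.2), aligned them to mm10 with STAR 2.5.2b and deposited RSEM 1.3.0 expected counts and TPM (transcript abundance scaled for length) per gene and library, without normalisation between libraries. They deposited ATAC-seq peaks of each library from BWA, SAMtools and MACS2 2.2.7.1 on mm10, with the fold enrichment and −log10 p of each peak.

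Expected counts were rounded, and 15030 of 55385 genes that reached 5 CPM in all libraries of any 1 age were fitted over the 18 tissue libraries with TMM factors and 1 coefficient per age in edgeR 4.0.16 (R 4.3.3), by the quasi-likelihood test at an unadjusted p under 0.001 and 2-fold. The 3 whole-cell libraries of the youngest age were part of this filter and fit. The paper states that whole cells and nuclei may differ for technical reasons. The fit with the P13 and P21 libraries alone, which left out all other ages, called 864 genes lower and 394 higher of 12391. The Benjamini-Hochberg adjustment ran over the whole set of tested genes. Normalised counts were divided by median-of-ratios factors, and TPM was used only to compare levels between genes. SE is the size of the log2 fold change divided by the square root of the F statistic of the quasi-likelihood test. That test shares information on spread over the 18 tissue libraries, so SE is not the spread of the P13 and P21 libraries alone (n = 2 at P13 and n = 3 at P21). P13 libraries were deeper (10576272 and 5664087 counts) than those of P21 (3901610 to 3990868), so low genes are counted less precisely at P21, and floors cover counting error only. The P13 pair and the P21 pairs differed by more than sampling noise (chi-square per gene of 2.92 to 6.75) and were kept as separate libraries. Gene classes and positions came from GENCODE vM21, which matched 14633 of the genes tested.

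Members, 37 pathway lists and 12 marker lists were chosen with earlier results of these data known. Named genes were the 15 largest falls and 15 largest rises with at least 50 normalised counts at the higher age and no overlap of libraries, leaving out Gm, Rik and accession names, up to 4 called members of each list in each direction (2 abundant ones where none was called), all marker genes and 13 genes that the study names for maturation. Genes outside this rule are marked in the text. Some members of these lists are not reported here. The fit was tested on simulated data with known folds. Start-site windows reached 500 bp, peaks within 10000 bp of a gene counted as near, and peaks were merged with bedtools 2.31.1 where they shared at least 1 bp. Alternatives were other scaling, a likelihood ratio test, DESeq2 1.42.0, no filter, fewer libraries, thinned P13 counts, a replicate block, stricter or broader limits and, added after seeing the data, a term for fragment length, the fit without E13.5 and subsets of genes.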

Additional observations from a re-analysis of the deposited data

How the results depend on the processing

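The direction of the step was kept under each of the 20 alternatives run, with more genes lower than higher, while counts moved. All genes called numbered 1701 without a filter on low counts (36585 genes fitted), 1659 at an adjusted p under 0.05, 453 among protein-coding genes of at least 1500 nt with no small nucleolar RNA inside, and 298 with mean fragment length as a term, in place of 1097. Those limits gave 340 and 248 lower genes for the last pair, in place of 871. Genes called higher numbered 341 by the likelihood ratio test, 453 without a filter, 394 with the P13 and P21 libraries alone, 404 by DESeq2, 431 at the adjusted limit, 136 among protein-coding genes, 113 among the long ones and 50 with the fragment term, in place of 226. Leaving out 1 library gave 705 to 989 calls, 617 to 776 lower and 88 to 213 higher, the lowest without P13 replicate 2, and 154 to 188 pathway genes and 308 to 395 genes under 1500 nt called lower. The fragment term gave 90 pathway genes called lower in place of 192 and 130 genes under 1500 nt in place of 430, and the cause of these losses was not tested. Falling genes near a peak found only at P13 numbered 133 rather than 77 when an overlap of 50% of the merged peak was asked for, and those near a peak found only at P21 numbered 50 rather than 162 with the 100000 strongest peaks.

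Of 143 named genes called, 131 kept their call with median-of-ratios factors, 135 with DESeq2, 127 with thinned P13 counts, 96 to 128 without 1 library and 45 with the fragment term. Among the genes given with a value, those that turned in direction with that term were Thrb (-0.33), Kcng4 (-0.27), Scn4b (-0.15) and Snord89 (-1.06), and Kcng4 also turned without P13 replicate 1, within a range of -0.15 to 0.53 when 1 library was left out. The replicate number as a block gave 1161 calls, 249 higher and 912 lower. Only numbers 1 and 2 occur at both ages, nothing ties them to an animal or day, and deviations of same-numbered libraries correlated at 0.08 and 0.05, so the libraries share only a number. With 2 libraries at P13, which are deeper and have longer fragments, small changes and those of genes near the floor of 3 counts are the least certain.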
